A study of Triticum aestivum with 18 samples.

Results

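PEAMT1, SAHH and COMT1 are wheat genes of methyl-group metabolism, and every array probe set assigned to them was followed across roots grown with or without each of 5 nutrients. The genes were found by symbol or synonym in the platform's annotation, which names 771 genes, and they had 4 of the 61179 wheat probe sets on the array. There was 1 for PEAMT1 (Ta.1842.1.S1_a_at), 2 for SAHH (Ta.1258.1.S1_a_at and Ta.1258.2.S1_x_at) and 1 for COMT1 (Ta.336.1.S1_x_at). All 4 were among the 34255 probe sets bright enough to be tested. An _a_at or _x_at ending marks a probe set that is not unique to 1 transcript. Its signal may include copies of the gene from the other wheat genomes and close relatives.

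The roots came from the winter wheat cultivar Hereward, dug up at booting in 2011 from continuous wheat plots of the Broadbalk experiment at Rothamsted. The 6 groups had 3 arrays each: a control on full nutrient supply, low K, low Mg, low P and low S, whose titles give no fertilisation with that nutrient, and low N, whose titles give low nitrogen. According to the labels' protocols, K, Mg, N and P were withdrawn in 1843 and S in 2000. All groups share the cultivar, tissue and stage. The series text gives 12 samples, while 18 arrays were used here, and neither it nor the labels say how many plots each group covers, so plot and nutrient cannot be told apart and p-values measure only the spread between these samples.

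These genes sit on one metabolic route. Methyltransferases take a methyl group from S-adenosylmethionine and release S-adenosylhomocysteine, which inhibits them until S-adenosylhomocysteine hydrolase, encoded by SAHH, splits it into adenosine and homocysteine. PEAMT1 encodes phosphoethanolamine N-methyltransferase, whose successive methylations lead to phosphocholine, from which plants make choline, phosphatidylcholine and, in cereals, glycine betaine. COMT1 encodes caffeic acid O-methyltransferase, which methylates the ring of phenolic lignin precursors and so contributes to the lignin of root xylem. Neither lipids nor lignin were measured here.

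The genes were chosen with results of the same arrays already known. PEAMT1 had been selected on its log2 difference between low P and control, so its contrasts with low P are given as a description without p-values. Which contrast led to SAHH and COMT1 is not given in the sources used here, so all of their differences are descriptions. Of the 4 probe sets, only PEAMT1 is tested, in the contrasts between low K, low Mg, low N and low S. Its contrasts of these groups with control use control arrays that entered the choice, so they too are descriptions. For the other contrasts the number of the 4 past limma's threshold is printed beside the share of all tested probe sets past it (called, adjusted p under 0.05), as a description from which nothing is read.

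Levels are linear MAS5 intensities, and each array had been scaled to the same mean after trimming of its extremes (500.1). Array medians ran from 53.3 to 72.4 and array maxima from 26466 to 41929, so the shapes of the distributions differed. Control array 2 had a median of 68.6, above the 53.6 and 54.4 of the other control arrays and near those of the low Mg, low P and low S arrays (65.2 to 72.4). Each result was therefore also computed after quantile normalization, which gives every array the same set of values and keeps only the ranks. The root label could be set against 1 root gene of the marker list, ALMT1, a malate channel of root tips, whose mean intensity was 83.2 (21 to 149 over the 18 arrays). Of the photosynthesis markers, 33 probe sets of 4 genes ranged in mean from 1.22 to 21778, the highest for the plastid gene rbcl, and the 12 probe sets of the grain markers from 0.768 to 81.8.

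PEAMT1 was brightest in control and low Mg roots and dimmest in low P roots. Its intensity was 10383, 10665 and 12181 on the 3 control arrays. It was 9854, 9980 and 12162 in low Mg and 9612, 9225 and 8668 in low S. It was 7645, 9591 and 9557 in low N and 9732, 8519 and 7605 in low K. In low P it was 5886, 7571 and 6433. All 3 low P arrays thus lay below each of the other 15 arrays, the nearest being low K array 3 at 7605 and low N array 1 at 7645. After quantile normalization low P array 2 (7605) lay above low K array 3 (7169), so these groups then overlapped.

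**Figure D1:**
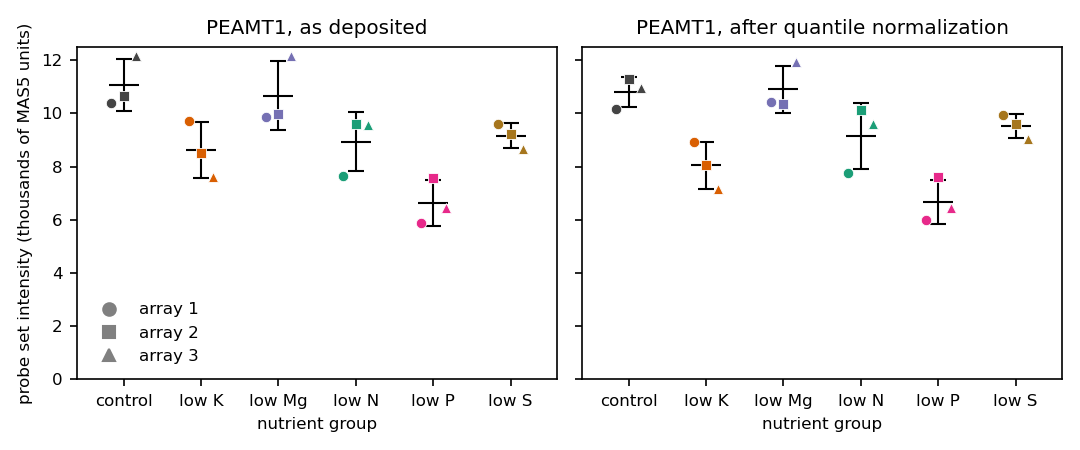
Intensity of the PEAMT1 probe set (MAS5 units, in 1000s, linear axis from 0) on the 18 arrays by nutrient group, as deposited (left) and after quantile normalization (right). Symbols are single arrays, the long dash is the group mean and the bars are 1 SD (n = 3). Low P lies lowest in both panels, with means of 6630 and 6677.

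As group means, PEAMT1 stood at 11076 ± 967 in control (SD, n = 3 here and in all groups), 10665 ± 1298 in low Mg, 9168 ± 474 in low S, 8931 ± 1114 in low N, 8618 ± 1067 in low K and 6630 ± 860 in low P. In this order, control and low Mg overlapped and differed by less than the larger SD, and so did low S and low N, and low N and low K. The steps from low Mg to low S and from low K to low P were larger than the SD, and the arrays on either side of them did not overlap. Here and below, the share of all tested probe sets without overlap between deficiency groups was not computed. The low P level was 1.68-fold below control, a log2 difference of -0.74 ± 0.12 (SE). Low P also lay below low Mg by 0.69 ± 0.12 log2, below low N by 0.43 ± 0.12, below low K by 0.38 ± 0.12 and below low S by 0.47 ± 0.12.

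The PEAMT1 difference between low P and control hardly moved with the scaling, at -0.70 ± 0.11 log2 after quantile normalization and -0.78 ± 0.13 with each array centred on its 75th percentile. Leaving out single arrays gave -0.84 to -0.66. Of the 4 probe sets, 1 (PEAMT1) was past the threshold in low P against control, beside 9.51% of all tested probe sets. With only the 6 arrays of these groups fitted, the PEAMT1 difference was again -0.74 ± 0.12, none of the 4 was past the threshold, and the number of probe sets past it over the whole array went from 3257 to 149. The array's ubiquitin probe sets for the 5' and 3' ends, which read how intact the RNA was, had a ratio of 1.09 to 1.12 in low P and of 1.15 to 1.32 in the other 5 groups. Other such ratios did not set low P apart from control. That of sucrose synthase (middle to 3' end) was 0.072 to 0.087 in low P and 0.071 to 0.099 in control. That of G-6-PDH (5' to 3' end) was 0.044 to 0.053 in low P and 0.039 to 0.068 in control. The part of RNA integrity in the PEAMT1 difference was not tested. Summed over the 5 probe sets of the nuclear photosynthesis markers, intensity ran from 594 to 1505 in low P and from 666 to 1151 in control, which overlap. The sum was 482 to 543 in low N, below all control arrays, and 1158 to 1603 in low Mg and 1297 to 2619 in low S, above all of them. The root gene ALMT1 stood at 121 to 149 in low N and at 54.6 to 78.4 in control. The part of these markers in the PEAMT1 differences was not tested. Fewer cells of a type and less transcript per cell cannot be told apart in whole roots.

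Against control, PEAMT1 was also lower in low K, low N and low S on all arrays of each group, without passing limma's threshold. The control arrays also entered the choice of PEAMT1, so these differences are descriptions. The log2 difference was -0.37 ± 0.12 in low K, -0.31 ± 0.12 in low N and -0.27 ± 0.12 in low S. Low Mg stood closest to control, at -0.06 ± 0.12 as deposited and at 0.01 after quantile normalization, where the sign turned. These contrasts share the control arrays with that for low P. The low N and low S arrays are among those whose summed nuclear photosynthesis markers lay outside the control range. With the plastid gene rbcl included, the sums of all 33 probe sets overlapped with control in both groups. Few probe sets passed in them over the whole array: 0.204% in low K, 0.0613% in low Mg, 0.415% in low N and 0.0175% in low S. Arrays that did not overlap with control were found for 12.3% of tested probe sets in low K, 13.1% in low Mg, 15.9% in low N, 25% in low P and 16.3% in low S. PEAMT1 was the only one of the 4 probe sets among them as deposited, in low K, low N, low P and low S.

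Between low K, low Mg, low N and low S, 0 of the 6 PEAMT1 contrasts passed limma's test. Low K against low Mg and low Mg against low N had an unadjusted p under 0.05. Of the 34255 tested probe sets, 5623 and 6045 had one too in these contrasts. The smallest limma adjusted p was 0.213, that of low K against low Mg. The difference there was -0.31 ± 0.12 log2, and the arrays of the groups did not overlap. The share of all tested probe sets without overlap was not computed for this contrast. After quantile normalization the difference was -0.44 ± 0.11 (limma adjusted p = 0.108). With 75th-percentile centring it was -0.22 ± 0.13 and the arrays overlapped. After quantile normalization, too, 0 of the 6 contrasts passed. Low K against low Mg, low K against low S and low Mg against low N had an unadjusted p under 0.05. The number of all probe sets at that unadjusted threshold was not computed there.

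SAHH gave some of the brightest signals on the array. On its _a_at probe set the intensity was 36544, 25753 and 40846 in control and 38858, 37493 and 41929 in low K. It was 28475, 26669 and 34435 in low Mg and 33955, 25604 and 32477 in low N. It was 23988, 25205 and 29315 in low P and 26325, 25876 and 24164 in low S. The low K arrays lay above every low Mg, low N, low P and low S array, while control array 2 lay among the low S and low P arrays, far from the other control arrays. Of the 61179 wheat probe sets it was the brightest on 5 of 18 arrays, and its rank was never below 15.

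The second SAHH probe set, the _x_at one, had the same pattern at a lower intensity. It stood at 29034, 22227 and 30760 in control and 33016, 30016 and 32162 in low K. It stood at 23500, 22235 and 28016 in low Mg and 25369, 21085 and 25228 in low N. It stood at 19092, 21308 and 24447 in low P and 22778, 22021 and 20999 in low S. Its rank on the arrays ran from 10 to 99. Over the 18 arrays the log2 intensities of both SAHH probe sets had a Pearson r of 0.976 and a Spearman rho of 0.988, and r = 0.970 without the 2 arrays farthest from the median. This is a description of probe sets that share a gene, arrays and scaling.

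COMT1 followed the SAHH pattern. Its intensity was 28007, 23113 and 33606 in control and 33291, 31017 and 32903 in low K. It was 24048, 21637 and 28982 in low Mg and 25989, 21279 and 25108 in low N. It was 22089, 23797 and 26914 in low P and 24687, 24150 and 22986 in low S. As with SAHH, low K lay above all arrays of the other deficiencies and control array 2 below its fellows, and the remaining 4 deficiency groups overlapped. Its rank ran from 9 to 43.

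**Figure D2:**
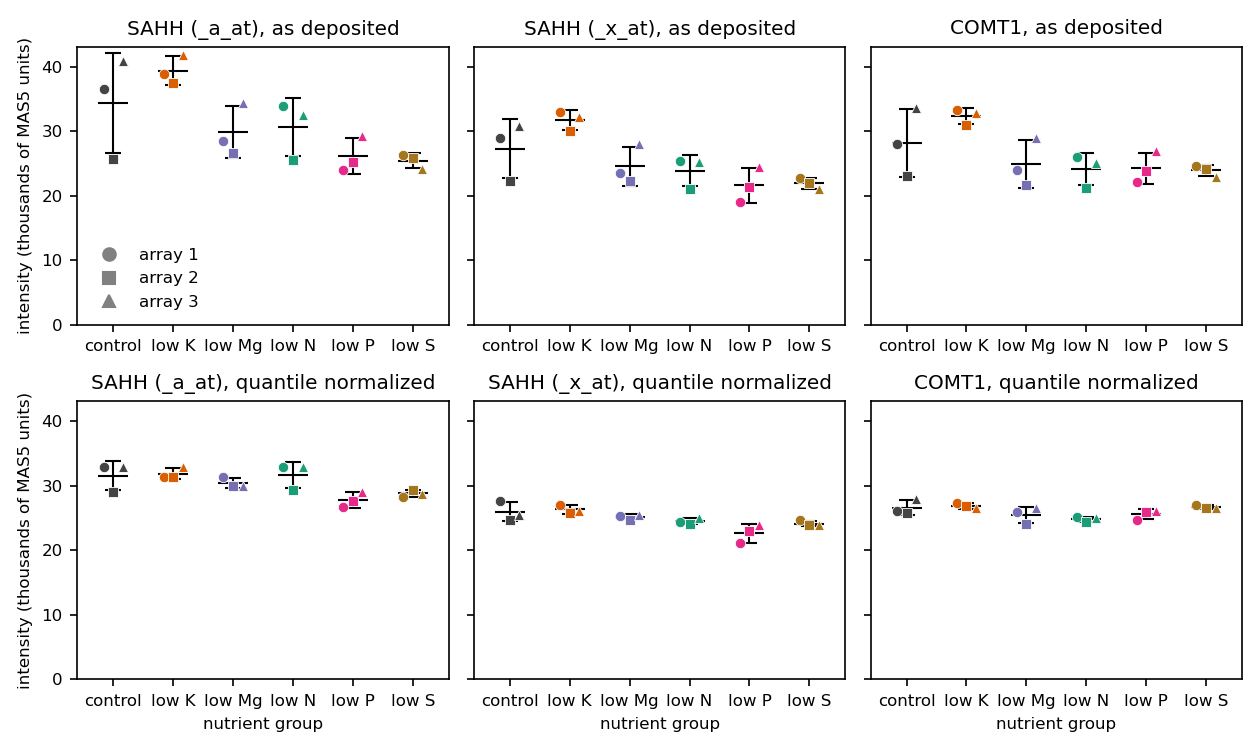
Intensity (MAS5 units, in 1000s, linear axes from 0) of the 2 SAHH probe sets and the COMT1 probe set by nutrient group, as deposited (top) and after quantile normalization (bottom). Symbols are arrays, dashes means and bars 1 SD (n = 3). As deposited low K is highest for all 3; after quantile normalization COMT1 means lie between 24825 and 26879 in all groups, and both SAHH probe sets are lowest in low P.

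The order of the group means was the same at its top for these 3 probe sets, low K before control, and varied below. The _a_at probe set of SAHH averaged 39427 ± 2272 in low K, 34381 ± 7775 in control, 30679 ± 4456 in low N, 29859 ± 4064 in low Mg, 26170 ± 2791 in low P and 25455 ± 1140 in low S. COMT1 averaged 32404 ± 1217 in low K, 28242 ± 5250 in control, 24889 ± 3744 in low Mg, 24267 ± 2446 in low P, 24125 ± 2504 in low N and 23941 ± 870 in low S. For each of the 3 probe sets, neighbours in this order overlapped and differed by less than the larger SD at every step.

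As differences from control, SAHH on the _a_at probe set stood at 0.22 ± 0.15 log2 in low K, -0.19 ± 0.15 in low Mg, -0.15 ± 0.15 in low N, -0.37 ± 0.15 in low P and -0.41 ± 0.15 in low S. The _x_at probe set stood at 0.23 ± 0.12, -0.15 ± 0.12, -0.19 ± 0.12, -0.33 ± 0.12 and -0.30 ± 0.12 log2 in the same order. COMT1 stood at 0.21 ± 0.12, -0.18 ± 0.12, -0.22 ± 0.12, -0.21 ± 0.12 and -0.22 ± 0.12 log2. All 3 were thus above control in low K and below it in the other groups, and all their arrays overlapped with control in each group. As deposited none of the 3 was past the threshold against control in any group. Single control arrays moved these values both ways. Without control array 2 SAHH (_a_at) stood at 0.03 log2 in low K, -0.57 in low P and -0.60 in low S, and without control array 3 at 0.36, -0.23 and -0.27. COMT1 in low Mg stood at -0.31 without control array 2 and at -0.04 without control array 3.

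**Figure D3:**
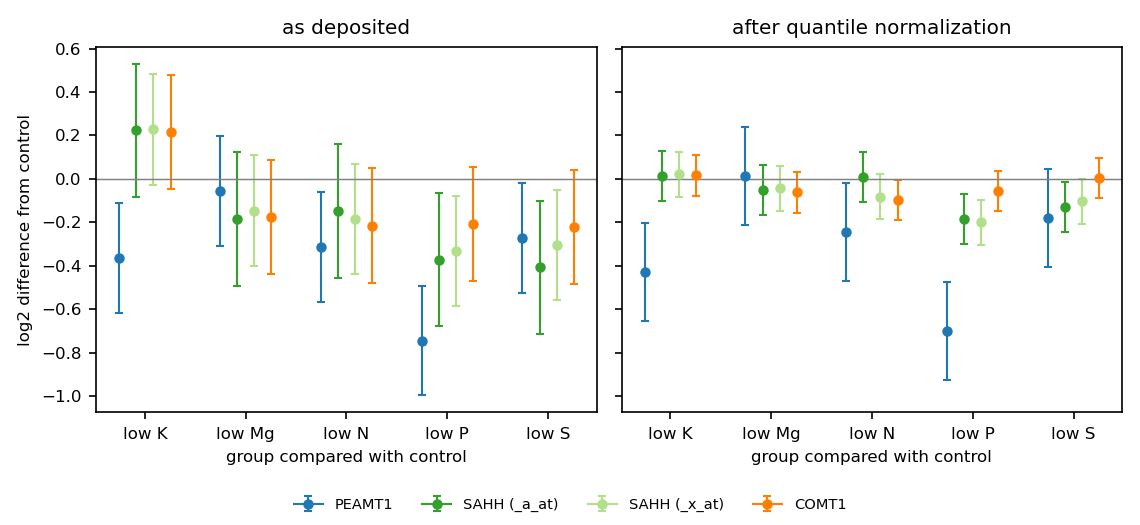
Log2 difference from control (vertical axis) of the 4 probe sets in each deficiency, as deposited (left) and after quantile normalization (right). Points are limma estimates over all 18 arrays and bars their 95% confidence intervals. PEAMT1 in low P is at -0.74 and -0.70, while the SAHH and COMT1 values in low K move from 0.21 to 0.23 to between 0.01 and 0.02.

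After quantile normalization most of the SAHH and COMT1 differences shrank. In low K all 3 stood at 0.01 to 0.02 log2 from control. In low P the SAHH probe sets stood at -0.18 ± 0.05 and -0.20 ± 0.05 log2. There 3 of the 4 probe sets were past the threshold, PEAMT1 and both of SAHH, beside 9.96% of all tested probe sets. In low S they stood at -0.13 ± 0.05 and -0.10 ± 0.05, and COMT1 at 0.00 ± 0.04. In low N COMT1 stood at -0.10 ± 0.04, and its low N arrays, which had overlapped with control as deposited, then lay below all control arrays. The same held for the low P and low S arrays of SAHH (_x_at). The share of all tested probe sets without overlap was computed only as deposited (15.9% in low N, 25% in low P and 16.3% in low S). SAHH (_a_at) in low N turned from below control to 0.01 ± 0.05, and COMT1 in low S from -0.22 to a value just above control. With 75th-percentile centring the signs were those of the deposited values, with SAHH (_a_at) at 0.26 in low K and -0.47 in low S.

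Quantile normalization leaves probe sets of such rank little room. It gave 32837 to the brightest probe set of each array, 27643 to the tenth, 21001 to the hundredth and 9234 to the thousandth. SAHH (_a_at) therefore kept values between 26644 and 32837, a 1.23-fold range, against a 1.75-fold range as deposited. For COMT1 the range went from 1.58-fold to 1.17-fold. PEAMT1, whose rank ran from 649 to 1769, kept a 1.99-fold range against 2.07-fold. The ranks themselves show which differences remained: SAHH (_a_at) ranked 1 to 6 in control, 1 to 2 in low K, 2 to 4 in low Mg and 1 to 5 in low N, but 6 to 15 in low P and 5 to 8 in low S. COMT1 ranked 9 to 21 in control, 11 to 16 in low K and 18 to 34 in low P, which overlap, and 28 to 38 in low N, outside the control range. SAHH (_x_at) ranked 10 to 33 in control, and 45 to 99 in low P and 35 to 45 in low S, also outside the control range. The share of all tested probe sets with ranks outside their control range was not computed.

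The brightest probe sets as a whole moved with SAHH and COMT1. The 100 other wheat probe sets with the highest mean log2 intensity had a median intensity per array of 27083 to 27774 in low K, and of 20734 to 27514 in control. It was 20900 to 25206 in low Mg, 19848 to 23348 in low N, 20441 to 23147 in low P and 20220 to 21705 in low S. Against control their median log2 difference was 0.19 in low K, with 98 of the 100 higher, -0.10 in low Mg, -0.11 in low N, -0.17 in low P and -0.21 in low S, with 98 lower. The COMT1 differences given above had the sign of these medians in every group. Across the 18 arrays the log2 of that median had a Pearson r of 0.983 with COMT1 (Spearman rho 0.967, r = 0.976 without the 2 extreme arrays) and of 0.964 with SAHH (_a_at) (rho 0.953, r = 0.947). Within groups, after removal of the group means, r was 0.982 for COMT1 and 0.973 for SAHH. With PEAMT1 it was 0.202 (rho 0.166, r = 0.188). The points share arrays and scaling, and whether the shift of the brightest values lies in the roots or in the arrays was not tested.

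**Figure D4:**
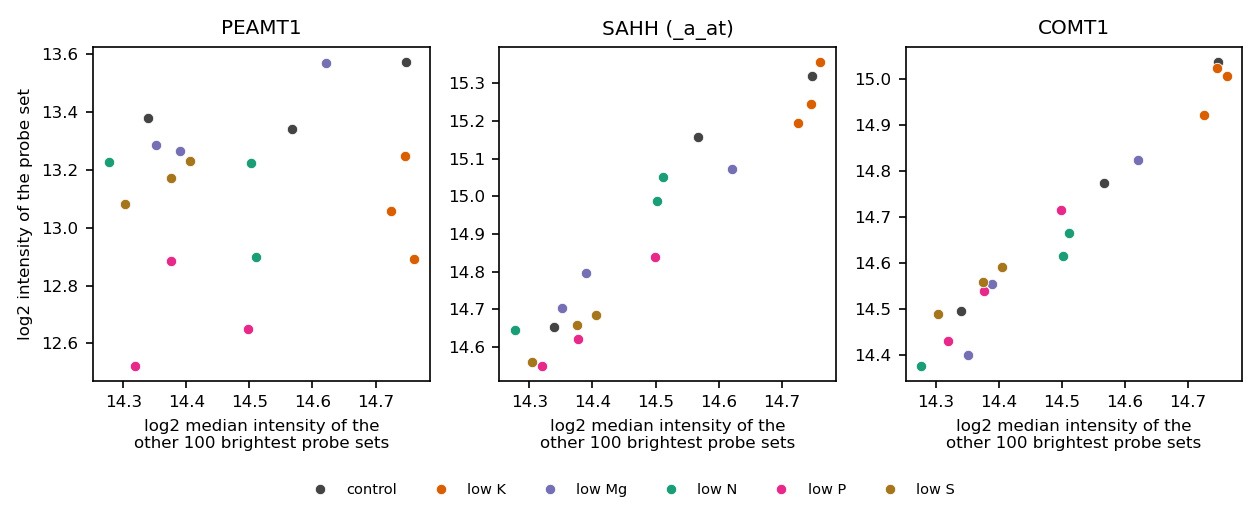
Log2 intensity of PEAMT1, SAHH (_a_at) and COMT1 (vertical axes, each with its own range) against the log2 median intensity of the other 100 brightest wheat probe sets (horizontal axes), 1 point per array, coloured by group. SAHH and COMT1 lie along a line (r = 0.964 and 0.983, n = 18), and PEAMT1 does not (r = 0.202).

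Set against those 100 probe sets within each array, SAHH (_a_at) lay 0.31 to 0.59 log2 above their median in control, 0.47 to 0.59 in low K, 0.35 to 0.45 in low Mg and 0.37 to 0.54 in low N. It lay 0.23 to 0.34 above it in low P and 0.26 to 0.28 in low S. On this relative scale SAHH was thus lowest in low P and low S, with only control array 2 reaching into the low P range. COMT1 lay 0.16 to 0.29 above the median in control and 0.11 to 0.22 in low P, which overlap, and 0.10 to 0.15 in low N, below all control arrays. The share of all tested probe sets without overlap with control was not computed on this scale. PEAMT1 stood on average at -1.12 log2 from the median in control, at -1.68 in low K and at -1.71 in low P, and on this scale its low K and low P arrays overlapped. The array median over all wheat probe sets moved the other way, with r = -0.73 for SAHH (_a_at) and -0.62 for COMT1, and -0.25 for PEAMT1 (rho -0.61, -0.51 and -0.17; r = -0.67, -0.53 and -0.16 without 2 arrays; n = 18).

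Between the deficiencies, the largest SAHH differences were those of low K from low S and low P. SAHH was higher in low K than in low P by 0.60 ± 0.15 (_a_at) and 0.56 ± 0.12 log2 (_x_at), COMT1 by 0.42 ± 0.12 and PEAMT1 by 0.38 ± 0.12. Low K stood above low S by 0.63 ± 0.15 (_a_at) and 0.53 ± 0.12 log2 (_x_at) for SAHH and 0.44 ± 0.12 for COMT1. Above low N it stood by 0.37 ± 0.15 (_a_at) and 0.41 ± 0.12 (_x_at) for SAHH and 0.43 ± 0.12 for COMT1. Above low Mg it stood by 0.41 ± 0.15 (_a_at) and 0.37 ± 0.12 (_x_at) for SAHH and 0.39 ± 0.12 for COMT1. After quantile normalization SAHH differed between low K and low P by 0.20 and 0.22 log2 and COMT1 by 0.07.

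The counts past limma's threshold are descriptions here, since the choice of genes may rest on these contrasts. Over the 10 pairs and 4 probe sets, 10 of 40 comparisons were past it. In low K against low P it was all 4, beside 13.9% of tested probe sets. It was 2 in low K against low N (7.04% of tested probe sets) and 2 in low K against low S (2.82%), and PEAMT1 alone in low P against low Mg (1.78%) and low N (16.1%). It was 0 in low K against low Mg (0.359%), low Mg against low N (1.64%), low N against low S (5.21%) and low P against low S (0.838%). In low Mg against low S limma called 0% of all tested probe sets, 1246 of which had an unadjusted p under 0.05. After quantile normalization 6 of the 40 were past it, and those of low K against low N (5.21% of tested probe sets) and low S (0.826%) were gone. The 6 were both SAHH probe sets in low K against low P (12.3%), PEAMT1 and SAHH (_a_at) in low N against low P (17.4%), and PEAMT1 in low P against low Mg (2.45%) and low S (1.05%). Over all 6 groups the F-test had PEAMT1 and both SAHH probe sets past the threshold as deposited (14.1% of tested probe sets), and PEAMT1 and SAHH (_x_at) after quantile normalization (13.4%).

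As a set the 4 probe sets had a median log2 difference from control of 0.22 in low K, -0.16 in low Mg, -0.20 in low N, -0.35 in low P and -0.29 in low S. The medians of all tested probe sets were -0.02, 0.04, 0.03, 0.05 and 0.04. Those of the 100 other brightest probe sets, which are closer in intensity to SAHH and COMT1, were 0.19, -0.10, -0.11, -0.17 and -0.21. These have the sign of the set's medians in every group. In low K the median hides opposite values, with PEAMT1 at -0.37 and SAHH and COMT1 at 0.21 to 0.23. In low P all 4 stood below control. PEAMT1 had a Pearson r over the 18 arrays of 0.272 with SAHH (_a_at) (rho 0.296, r = 0.109 without 2 arrays) and of 0.205 with COMT1 (rho 0.166, r = 0.111) as deposited. After quantile normalization it had r = 0.261 with SAHH (_a_at) (rho 0.208, r = -0.13 without 2 arrays) and 0.496 with SAHH (_x_at) (rho 0.390, r = 0.127). SAHH (_a_at) and COMT1 had r = 0.931 (rho 0.909, r = 0.896), which was 0.211 after quantile normalization (rho 0.140, r = 0.0786). SAHH (_x_at) and COMT1 had r = 0.431 there (rho 0.412, r = 0.383).

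Among the 74 other genes with an informative name, those most like PEAMT1 over the 18 arrays were TSA (r = 0.780, rho 0.664), wcH2B-8 (0.661, rho 0.498), H2A-9 (0.636, rho 0.315), GLU1A (0.542, rho 0.265) and wcH2B-6 (0.536, rho 0.257). After quantile normalization TSA stood at r = 0.830. Those most like SAHH were tubb2 (0.972), TUBA (0.971), TEF1 (0.969), PRO1 (0.965) and UBC1 (0.942), with mean intensities of 15195 to 26477. Those most like COMT1 were PRO1 (0.975), SAHH (0.954), TCTP (0.949), ha1 (0.945) and TEF1 (0.945). After quantile normalization TEF1 stood at r = -0.27 with SAHH and -0.64 with COMT1. The others listed for SAHH stood at 0.795 (TUBA), 0.757 (tubb2), 0.741 (UBC1) and 0.646 (PRO1). Those for COMT1 stood at 0.656 (ha1), 0.548 (PRO1), 0.431 (SAHH) and 0.275 (TCTP).

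Few other genes of methyl, choline and lignin metabolism were found by name. The search used symbols and synonyms but not descriptions, and 102 of the 771 annotated genes had an informative symbol. Genes of these routes without such a name would have been missed. The list of such genes, from S-adenosylmethionine synthetase to peroxidases, matched 6 probe sets of 2 genes. PER1, which matched the peroxidase symbols of the list, had the 2 tested ones, with mean intensities of 124 and 151. Neither was called by limma against control in any group. The match rests on the symbol, and whether PER1 encodes an enzyme of lignin metabolism was not checked. The 4 probe sets of Prx1 were too dim to be tested, with mean intensities of 12.2 to 24.9.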

How the data were processed

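The deposited table held 1 intensity per probe set and array for 18 Affymetrix wheat arrays, made by the authors with Affymetrix Expression Console and MAS5, per the submitters' processing notes. No source used here gives the versions or the scaling target. Per the labels' protocols, 500 ng of root RNA went into each labelling reaction. The trimmed mean, without the highest and lowest 2%, was 500.1 on every array.

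Without the 111 control probe sets 61179 remained. Of these, 34255 reached the median of their array on 3 or more arrays and were tested. Log2 intensities, with no added constant, were fitted as 6 group means with limma 3.58.1 under R 4.3.3, using the 18 arrays together (eBayes with an intensity trend, 12 residual degrees of freedom). P-values are two-sided and Benjamini-Hochberg adjusted over all tested probe sets within a contrast, called under 0.05. The fit was also run on simulated data with independent noise and changes larger than those of PEAMT1, SAHH and COMT1. That run does not bear on differences of their size. Figures used matplotlib 3.10.9. The number of arrays limits the precision.

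Genes were named from the platform annotation, updated through the RefSeq table of IWGSC CS RefSeq v2.1 (770 of 771 genes matched by gene number), which was used for names only. All probe sets of the 3 genes are described. A gene's lead probe set is its brightest, and the 5 most alike genes have the highest Pearson r with it, with 1 probe set per gene. The members, lists and tests were chosen with earlier results of these data known. The 100 brightest probe sets were brought in after the values had been seen. Same-numbered arrays were no more alike than others: after removal of group means their correlations ran from -0.11 to 0.17 over 45 pairs, 5 of them over 0.1, so the numbers were not taken as pairs. Alternatives were quantile normalization, 75th-percentile centring, no filter, a stricter filter, a pseudocount of 16, no intensity trend, a replicate block, leaving out each array and fitting only the arrays compared.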

Additional observations from a re-analysis of the deposited data

How the results depend on the processing

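Under the 26 alternatives, the 520 differences of the 4 probe sets from control each moved by less than the larger SD of the groups compared. For SAHH and COMT1 this yardstick is loose, since the control SD is wide (7775 on a mean of 34381 for SAHH (_a_at)). Within it, the SAHH (_a_at) difference in low K went from 0.22 to 0.01 log2 after quantile normalization. After quantile normalization SAHH (_a_at) in low N, COMT1 in low S and PEAMT1 in low Mg changed sign, none of them called. The counts that follow are of the 4 probe sets past limma's threshold, with the number over all probe sets tested under that setting (summed over the pairs where pairs are counted) beside them. In low P against control the count was 1 (3257 overall). It was 3 after quantile normalization (3412), 2 with a replicate block (3266) and 0 with only the arrays compared (149). With single arrays left out it was 1 to 3, the 3 without control array 2 (5032). In low S the count of 0 (6 overall) ranged from 0 to 2, the 2 again without control array 2 (994), and in low K, low Mg and low N it was 0 under every alternative. The F-test gave 3 (4842), and 1 without the intensity trend (2986). It gave 1 to 4 with single arrays left out, 1 without any one low K array (3258 to 4563) and 4 without control array 2 (6671) or low Mg array 3 (3805). Over the 10 pairs of deficiencies the count of 10 (17041) was 6 after quantile normalization (16234), 4 with no filter (12074) and 4 with no intensity trend (12460). With single arrays left out it was 4 to 11, the 11 without control array 2 (20194) or 3 (17826). It was 4 without any one low K array (12057 to 16654) and 5 without any one low S array (13402 to 14387). It was 6 without low N array 2 (12469) or 3 (10683) or low P array 1 (13868). The numbers in brackets are counts and not shares, since the number tested is not given for each setting. The causes were not tested. Detection calls were not used.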

Other observations

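2 bright probe sets without a gene in the annotation have array identifiers that start with the same number as that of PEAMT1 or COMT1. Which genes they read is not given in the sources used here, and they were picked out after the values had been seen. The one numbered like PEAMT1 stood at 17089 ± 2163 in control, 20201 ± 261 in low K and 15610 ± 1096 in low P (SD, n = 3 each). Its log2 difference from control was 0.25 in low K, -0.04 in low Mg, -0.17 in low N, -0.12 in low P and -0.25 in low S (SE 0.09 each). Its r with PEAMT1 over the 18 arrays was 0.177. The one numbered like COMT1 stood at 18195 ± 2228 in control, 14746 ± 371 in low N and 20696 ± 3286 in low P. Its log2 difference from control was 0.07 in low K, -0.06 in low Mg, -0.30 in low N, 0.18 in low P and 0.04 in low S (SE 0.11 each). Its r with COMT1 was 0.379. The differences of both probe sets are descriptions, and none of them was past limma's threshold.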
